A study of Mus musculus with 16 samples.

Results

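The RNA of GFP cells that survived a T cell attack begun on day 7 was compared with that of mCherry cells from the same tumours. These are 6 of the 16 libraries of the series: 3 of GFP cells and 3 of mCherry cells, taken as pairs by the number (2, 3 or 4) of their columns in the day 7 count table. Both colours are 4T07 cells, a mouse mammary carcinoma line, transduced with GFP or mCherry, mixed 1:1 and grown from 250000 cells in the mammary fat pad of female hybrids of Balb/cJ and C57BL/6J mice. Every mouse of this comparison received 7000000 PD1-knockout (PD1KO) Jedi T cells by the tail vein on day 7, and its tumour was taken 7 days later, dissociated with enzymes and sorted after a CD45 stain and DAPI. The mCherry cells are the untargeted partners within the same tumour, so they too lay beside attacking T cells. GFP cells without T cells were not analysed here, so what the GFP line brought with it and what the attack left cannot be told apart. The sources used here do not give the reporters' promoter, the number of clones in each line or the CD45 gate.

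Jedi T cells carry a receptor for a peptide of GFP presented on MHC class I, and they kill through cytotoxic granules and death ligands while releasing interferon-gamma. A tumour cell that lives through such contact can differ in antigen presentation, in its stress responses, in its shape and matrix contacts, and in the ligands it shows to other immune cells. The sequences below illustrate 3 programmes. In the integrated stress response ATF4 switches on genes of amino acid supply. In the Hippo pathway YAP and TAZ act through TEAD factors on genes of the cytoskeleton and matrix. SREBP-2 switches on the enzymes of cholesterol synthesis when sterols run short.

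The libraries held 9412040 to 14535791 counts for GFP and 12942893 to 19970822 for mCherry cells. The mCherry library of tumour 4 stood apart. In it 5 genes, led by the mitochondrial tRNA synthetase gene Lars2, together held 7.27% of counts, against 0.651% to 1.01% in the other libraries. The excess lay in Lars2 (4.53%), Gm23935 (1.87%) and Gm42418 (0.816%). Gm26917 held 0.0565% there and 0.0597% in the GFP library of tumour 3, and Gm37357 held 0% there. Vim, Krt8 and Krt18, a mesenchymal filament and the simple epithelial keratins of the carcinoma, were present in both colours, whereas Epcam lay near 1 CPM (counts scaled by TMM to a fixed library size). Macrophage and endothelial markers were lower in GFP libraries: 19 of 20 tested macrophage and monocyte genes fell (median log2 fold change −2.57; summed level 115 to 203 CPM in GFP and 705 to 1041 CPM in mCherry libraries). All 13 endothelial genes tested fell (median −3.50; 19.01 to 20.6 against 57.5 to 105 CPM), and 1 of 6 tested fibroblast genes did, or 5 of 6 without tumour 2. Of the Schwann cell genes 2 of 3 tested rose, and of the T and NK cell genes 0 of 3 tested were called. Summed levels are over all listed genes, tested or not, and without TMM scaling. In bulk libraries fewer cells of a type and less RNA per cell cannot be told apart. Values of these lists stand beside the results they move with, and their part in those results was not tested.

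Of 14578 genes tested, 1296 (8.89%) were higher and 1360 (9.33%) lower in GFP cells at an adjusted p of 0.05 (edgeR quasi-likelihood test with tumour as a block, Benjamini-Hochberg adjustment over all genes tested), in all 18.2%. Above a 2-fold change stood 317 of the rises and 554 of the falls, and the median log2 fold change over all genes was −0.0037. The 3 GFP and 3 mCherry values did not overlap for 4989 genes (34.2%), and 52.3% of genes had the same sign in all 3 tumours. The number of calls rests on which tumours enter: it was 1753 without tumour 2, 1156 without tumour 3 and 4558 without tumour 4. Sets of 3 values are in the order of tumours 2, 3 and 4. The sign ± after a log2 fold change is its standard error from the fit over 3 tumours. For day 15 and for differences between days it is from a joint fit of 12 libraries of both days. After a level, ± is the SD over 3 libraries. The words "rose" and "fell" are kept for genes called in the whole fit. Counts of rises and falls in a gene list are to be read against the 8.89% and 9.33% of all genes.

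Promoters are shown for 4 genes of the 3 programmes, each as the 250 bases before the annotated RefSeq start (build GRCm38.p6), 5′ to 3′ on the gene's strand, with the searched letters in capitals. Asns (chr6:7693210-7693459, minus strand) and Chac1 (chr2:119350992-119351241, plus strand) represent ATF4 targets, with TGATGNAA, the letters of a C/EBP-ATF response element, on either strand. Ankrd1 (chr19:36119845-36120094, minus strand) represents YAP targets, with the TEAD core GGAATG. Hmgcs1 (chr13:119690101-119690350, plus strand) represents the sterol enzymes, with the sterol regulatory element letters TCACNCCAC.
Asns: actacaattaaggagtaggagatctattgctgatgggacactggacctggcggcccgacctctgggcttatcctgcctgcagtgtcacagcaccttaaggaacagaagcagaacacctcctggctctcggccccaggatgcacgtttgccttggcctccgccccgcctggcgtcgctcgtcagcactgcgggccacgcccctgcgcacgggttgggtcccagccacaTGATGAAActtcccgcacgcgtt
Chac1: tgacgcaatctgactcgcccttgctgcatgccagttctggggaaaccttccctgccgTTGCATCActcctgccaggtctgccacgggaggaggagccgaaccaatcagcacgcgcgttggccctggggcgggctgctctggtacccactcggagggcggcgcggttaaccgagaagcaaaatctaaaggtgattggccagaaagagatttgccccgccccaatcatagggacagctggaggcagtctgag
Ankrd1: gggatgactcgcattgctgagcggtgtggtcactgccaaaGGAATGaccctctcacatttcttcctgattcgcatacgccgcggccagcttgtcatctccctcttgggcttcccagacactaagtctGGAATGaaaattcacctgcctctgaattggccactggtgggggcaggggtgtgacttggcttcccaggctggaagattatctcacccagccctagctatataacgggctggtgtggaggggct
Hmgcs1: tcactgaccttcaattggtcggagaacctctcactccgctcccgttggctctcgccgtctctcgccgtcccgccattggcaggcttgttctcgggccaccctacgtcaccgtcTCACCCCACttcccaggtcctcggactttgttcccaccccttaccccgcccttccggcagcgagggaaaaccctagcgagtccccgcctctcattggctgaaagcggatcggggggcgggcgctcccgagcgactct
A match is a description of letters and not a shown binding site. Over the 9812 tested genes with a promoter entry, searched on both strands, TGATGNAA was found in 2.34%, GGAATG in 12.8% and TCACNCCAC in 1.16%.

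Among genes outside the interferon, division and host lists with an average log2 CPM from 3 upward, the largest rise was that of Ngfr, the p75 neurotrophin receptor. It measured 23.9, 17.9 and 23.5 CPM in GFP cells. The mCherry libraries gave 0.896, 1.67 and 2.13 CPM. The groups lay far apart, a 14.3-fold difference (log2 fold change 3.84 ± 0.28, adjusted p = 2.43e-05). Angptl7, a secreted angiopoietin-like protein, measured 2041, 1422 and 836 CPM in GFP cells. It stood at 222, 196 and 125 CPM in mCherry cells. Every GFP library exceeded every mCherry library, 7.64-fold in the fit (log2 fold change 2.93 ± 0.12, adjusted p = 2.76e-06), and the related Angptl6 rose from 1.99 ± 0.689 to 13.4 ± 6.28 CPM. Syt8, a synaptotagmin of membrane traffic, rose from 11.9 ± 4.05 to 58.2 ± 6.5 CPM (log2 fold change 2.33 ± 0.21, adjusted p = 7.84e-05). Gdpd2, a glycerophosphodiester phosphodiesterase, rose from 5.17 ± 0.796 to 27.5 ± 9.91 CPM (log2 fold change 2.37 ± 0.18, adjusted p = 3.69e-05). The other members of the 12 largest rises were Bglap2, described with the bone matrix, and Gbp10, Apol6, Batf2, Gm43302, Gm12250, Tgtp1 and Tgtp2, most of them relatives of interferon-induced genes that the interferon list did not hold. Tgtp1 and Tgtp2 are near-identical copies, so their split of reads is uncertain.

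**Figure D1:**
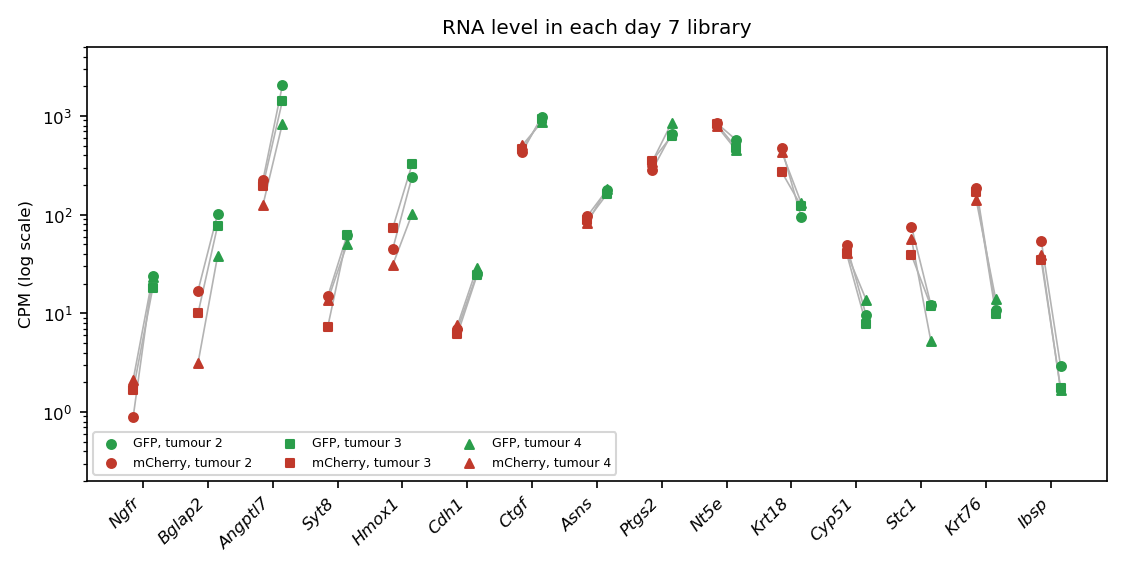
RNA level in CPM (log axis) of 15 genes in the 3 GFP (green) and 3 mCherry (red) libraries, with grey lines joining libraries of the same tumour. Genes from Ngfr to Ptgs2 lie higher in every GFP library than in any mCherry library, and those from Nt5e to Ibsp lower.

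Among the 12 largest falls of the same genes, Ibsp, Krt76 and Stc1 are not known as macrophage genes. Krt76, a type II keratin of oral and squamous epithelium, measured 10.8, 9.87 and 13.8 CPM in GFP cells. Their mCherry partners had 187, 171 and 139 CPM. The drop was 14.3-fold and as clear in each tumour (log2 fold change −3.83 ± 0.17, adjusted p = 2.76e-06). Stc1, the secreted glycoprotein stanniocalcin, measured 12.1, 11.8 and 5.21 CPM in GFP cells. In mCherry cells it was 75.7, 39 and 56.7 CPM, so GFP was the lower in all 3 tumours (log2 fold change −2.57 ± 0.26, adjusted p = 1.71e-04). Gatm, which makes the creatine precursor guanidinoacetate, fell from 30.1 ± 13 to 3.72 ± 1.72 CPM. Ccl9, Ctsc, Msr1, Ms4a6d, Cybb, Fcgr2b, Laptm5 and Lilrb4a, the remainder, are genes known from myeloid cells, and they fell by 2.66 to 3.28 on the log2 scale, beside the median of −2.57 of the macrophage list. Ctsc, the dipeptidyl peptidase that activates granule proteases, was the most changed of these by level, at 18.7, 5.12 and 20.1 CPM in GFP and 167, 74 and 106 CPM in mCherry cells.

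The largest gains by level, in CPM and among those same genes, were those of ferritin, the iron store of the cell. Fth1, its heavy chain, measured 13176, 13125 and 4832 CPM in GFP cells. The mCherry libraries gave 6123, 7335 and 4646 CPM. The groups overlapped, with log2 differences of 1.11, 0.84 and 0.057 in the 3 tumours. The call (log2 fold change 0.67 ± 0.18, adjusted p = 0.0268) ended without tumour 2 (adjusted p = 0.194), without tumour 3 (0.196), without the tumour block (0.134) and in DESeq2 with the block (0.518). Ftl1, the light chain, went from 5144 ± 971 to 8503 ± 3083 CPM (log2 fold change 0.67 ± 0.14), and its call ended without tumour 2, tumour 3 or the block (adjusted p = 0.139, 0.091 and 0.0821). Ferritin genes have processed copies with which reads can be shared. The largest losses by level were those of Spp1, osteopontin, and Slpi, a secreted inhibitor of leukocyte proteases. Slpi went from 11928 ± 3314 to 7545 ± 2511 CPM (log2 fold change −0.69 ± 0.12), with groups that overlapped, and it was not called once tumour 3 was left out (adjusted p = 0.0788) or the block dropped (0.123). H1f0, the linker histone that accumulates in non-dividing cells, was lower in GFP cells, from 1210.4 ± 27.3 to 704 ± 27.2 CPM (log2 fold change −0.78 ± 0.10, adjusted p = 5.48e-04). Crabp2, which carries retinoic acid to its nuclear receptor, rose from 15.6 ± 1.57 to 30.4 ± 3.01 CPM (log2 fold change 0.97 ± 0.14, adjusted p = 0.0013).

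Of 30 tested genes of the YAP and SRF programmes 15 rose, 15 were not called and none fell. Their log2 fold changes had a median of 0.46 and tumour medians of 0.51, 0.39 and 0.39. Without tumour 2, 3 and 4 there were 11, 10 and 17 rises and 0, 0 and 1 falls. Ctgf, a matricellular protein and a standard YAP readout, measured 984, 941 and 868 CPM in GFP cells. It stood at 434, 459 and 505 CPM in mCherry cells, with no overlap (log2 fold change 1.0 ± 0.11, adjusted p = 2.87e-04). Ankrd1, a cardiac ankyrin repeat protein whose promoter is printed above, measured 104, 92.3 and 104 CPM in GFP and 41.1, 48.8 and 46 CPM in mCherry cells (log2 fold change 1.14 ± 0.11, adjusted p = 1.32e-04). Cyr61, a secreted relative of Ctgf, rose from 656 ± 154 to 1093 ± 206 CPM (log2 fold change 0.75 ± 0.11). Of the pathway's own restraints, Lats2, the kinase that inactivates YAP, rose by 0.56 ± 0.12 and Amotl2, which holds YAP in the cytoplasm, by 0.71 ± 0.14 on the log2 scale. Contractile and actin-linked members rose as well: Actg1, cytoplasmic gamma-actin, by 0.74 ± 0.10, Cnn2, a calponin, by 0.77 ± 0.11, Flnc, an actin crosslinker, by 1.24 ± 0.15, and Mical2, an actin-oxidising enzyme that promotes SRF activity, by 1.19 ± 0.18. GGAATG was found before 6 of 12 called and 7 of 13 other tested members with a promoter entry.

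**Figure D2:**
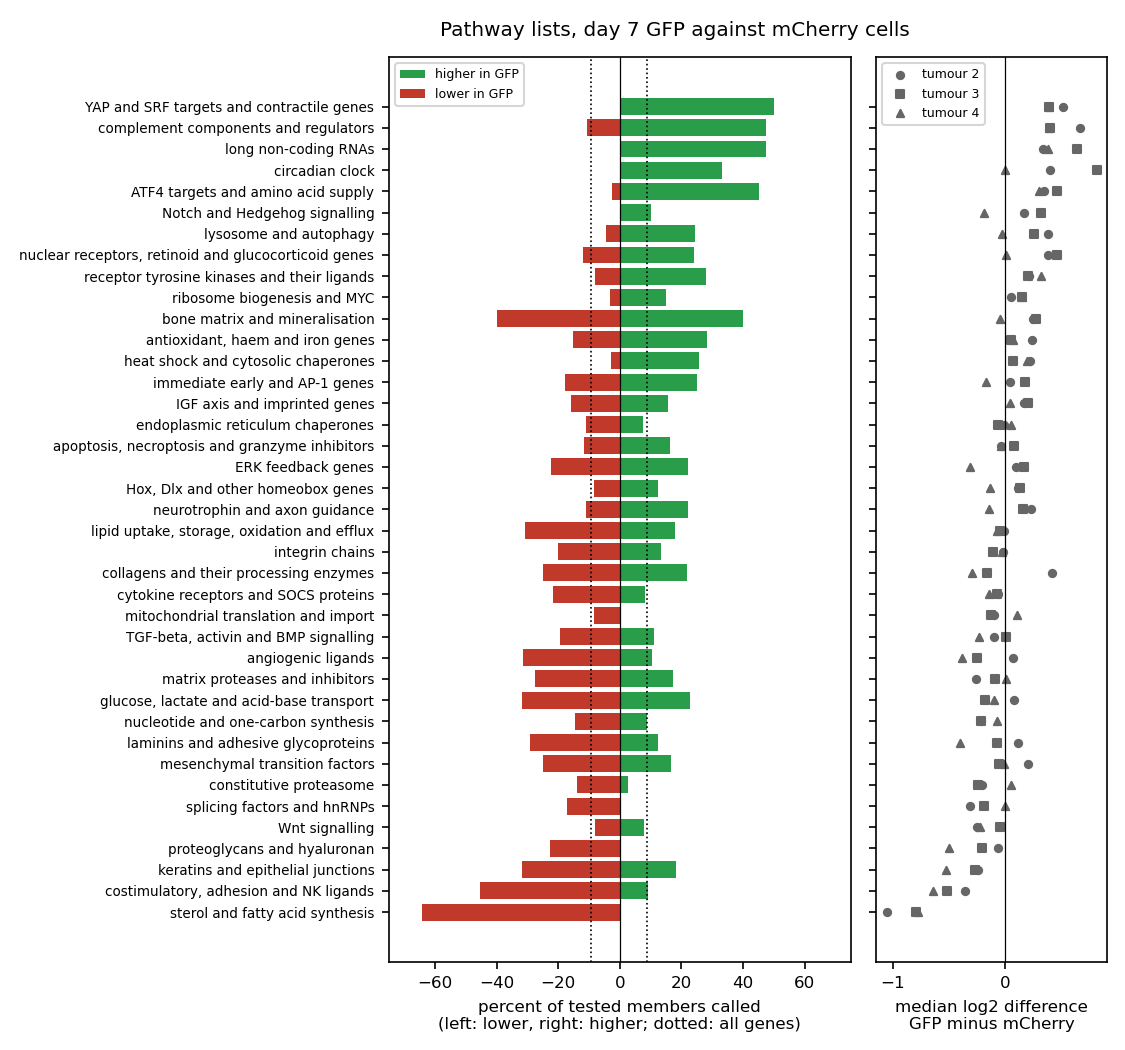
Left, percent of the tested members of each of 39 gene lists called higher (green, to the right) or lower (red, to the left) in GFP cells, with dotted lines at the 8.89% and 9.33% of all genes. Right, the median log2 difference of each list in tumours 2, 3 and 4. YAP and SRF targets stand at the top and sterol and fatty acid synthesis at the bottom of the order by median.

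ATF4 targets and other genes of amino acid supply rose in 19 of 42 cases and fell in 1 (median 0.34; tumour medians 0.35, 0.46 and 0.30). Without tumour 2, 3 and 4 there were 13, 9 and 24 rises and 1, 2 and 3 falls. Asns, asparagine synthetase, measured 176, 160.1 and 183 CPM in GFP cells. Their mCherry partners had 96.3, 87.3 and 82.2 CPM, a narrow spread in both colours with no overlap (log2 fold change 0.96 ± 0.10, adjusted p = 2.41e-04). Chac1, which degrades glutathione, measured 41, 34.8 and 48.8 CPM in GFP and 19.1, 19.2 and 17.2 CPM in mCherry cells (log2 fold change 1.16 ± 0.15, adjusted p = 7.29e-04). Trib3, a pseudokinase that feeds back on ATF4, rose by 0.94 ± 0.15 and Ddit3 (CHOP), a transcription factor downstream of ATF4, by 0.74 ± 0.12. The enzymes ranged over serine, proline, alanine and one-carbon synthesis: Phgdh rose by 0.61 ± 0.11, Aldh18a1 by 0.63 ± 0.10, Gpt2 by 0.82 ± 0.16 and Mthfd2 by 0.75 ± 0.10, and the alanyl-tRNA synthetase Aars by 0.79 ± 0.10. The member that fell in the whole fit was Ddit4, an inhibitor of mTORC1, from 6.89 ± 4.09 to 1.72 ± 0.464 CPM (log2 fold change −1.91 ± 0.37, adjusted p = 0.0067). TGATGNAA was found before 5 of 17 called members with a promoter entry (Aars, Asns, Chac1, Got1 and Pycr1) and 3 of 14 others. The calls of Got1 and Pycr1 ended without tumour 2 (adjusted p = 0.0714 and 0.152) and without tumour 3 (0.263 and 0.151).

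Chaperones of the endoplasmic reticulum, the classical readout of unfolded protein there, did not move as a group: 2 of 27 rose and 3 fell, with a median of 0.068. Without tumour 2, 3 and 4 there were 1, 0 and 4 rises and 0, 0 and 6 falls. Heat shock and cytosolic chaperones rose in 9 of 35 cases and fell in 1 (median 0.11), with 5, 5 and 13 rises and 1, 0 and 3 falls without tumour 2, 3 and 4. The members with the larger changes were small heat shock proteins, which hold unfolding proteins in solution. Cryab, alpha-B-crystallin, measured 109, 96.6 and 107 CPM in GFP cells. In mCherry cells it was 34.9, 41.3 and 48.8 CPM, without overlap (log2 fold change 1.33 ± 0.12, adjusted p = 8.76e-05). Its genomic neighbour Hspb2 rose from 18.8 ± 2.27 to 44.2 ± 15.5 CPM, Hspb6 from 67.3 ± 4.67 to 119 ± 8.53 CPM and Hspb7 from 1.01 ± 1.02 to 7.14 ± 2.1 CPM. Hspa4l, a nucleotide exchange factor of the HSP70 family, rose by 0.65 ± 0.10 on the log2 scale. Hspb1 (HSP25) went the other way (log2 fold change −0.43 ± 0.12), not called once tumour 3 was left out (adjusted p = 0.184) or the block dropped (0.208).

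Antioxidant, haem and iron genes moved in both directions: 13 of 46 rose and 7 fell (median 0.12), with 7, 7 and 18 rises and 2, 1 and 10 falls without tumour 2, 3 and 4, and 8 rises without the tumour block. Hmox1, haem oxygenase, which frees iron from haem, measured 243, 325 and 102 CPM in GFP cells. The mCherry libraries gave 44.5, 72.4 and 30.8 CPM. The ranges did not overlap, and the level differed between tumours in both colours (log2 fold change 2.12 ± 0.14, adjusted p = 1.47e-05). Hmox1 is also expressed by macrophages, whose summed markers were lower in the GFP libraries. Both subunits of glutamate-cysteine ligase, the first step of glutathione synthesis, rose. Gclm went from 12.7 ± 3.17 to 36.3 ± 13.5 CPM (log2 fold change 1.48 ± 0.15, adjusted p = 1.53e-04). Gclc went from 17 ± 2.92 to 33.1 ± 10.7 CPM (log2 fold change 0.93 ± 0.17, adjusted p = 0.00448). Srxn1, which repairs oxidised peroxiredoxins, rose by 0.85 ± 0.13 and the glutathione transferase gene Gstm1 by 0.94 ± 0.15, the latter with overlapping groups and log2 differences of 1.44, 0.81 and 0.54 in the 3 tumours. Hmox2, the constitutive haem oxygenase, fell from 68.2 ± 5.44 to 41.1 ± 2.09 CPM (log2 fold change −0.73 ± 0.11, adjusted p = 0.0019). The gene of the NRF2 factor itself, Nfe2l2, was lower (log2 fold change −0.48 ± 0.10, adjusted p = 0.00795), a call lost without tumour 2 (adjusted p = 0.08) and tumour 3 (0.0841).

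Of the list of sterol and fatty acid synthesis, 18 of 28 genes tested fell and none rose, and their log2 fold changes had a median of −0.88 and tumour medians of −1.05, −0.79 and −0.77. The falls numbered 17, 17 and 21 without tumour 2, 3 and 4. Cyp51, lanosterol demethylase, measured 9.55, 7.76 and 13.8 CPM in GFP cells. It stood at 49.1, 40.4 and 41.2 CPM in mCherry cells, well apart in every tumour (log2 fold change −2.09 ± 0.18, adjusted p = 7.12e-05). Sqle, squalene epoxidase, measured 78.5, 65.5 and 77.1 CPM in GFP and 207, 186 and 183 CPM in mCherry cells (log2 fold change −1.38 ± 0.10, adjusted p = 2.77e-05). Along the pathway, Hmgcs1 fell from 58.7 ± 2.82 to 32.1 ± 2.42 CPM, Idi1 from 9.26 ± 1.09 to 2.42 ± 0.146 CPM, and Fdps from 55.4 ± 8.68 to 19.4 ± 1.17 CPM. Further along, Fdft1 fell from 85.9 ± 11.8 to 46 ± 0.729 CPM. The regulators fell too, with a log2 fold change of −1.36 ± 0.14 for Srebf2, the gene of SREBP-2. It was −1.76 ± 0.16 for its retention protein gene Insig1. Endothelial cells and macrophages, whose markers fell in the same libraries, also make sterols, and their part was not tested. TCACNCCAC was found before Hmgcs1 alone among 9 called members with a promoter entry and before 0 of 9 others.

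Other lipid genes split, with 7 of 39 rising and 12 falling (median 0.00045), or 4, 4 and 14 rises and 8, 6 and 12 falls without tumour 2, 3 and 4. Ptgs2, the inducible cyclooxygenase that opens prostaglandin synthesis, measured 655, 624 and 847 CPM in GFP cells. Their mCherry partners had 282, 349.9 and 341 CPM, below every GFP library (log2 fold change 1.12 ± 0.12, adjusted p = 1.99e-04). Its constitutive relative Ptgs1 changed in the opposite direction, from 77.6 ± 18.1 to 33 ± 9.66 CPM (log2 fold change −1.26 ± 0.18, adjusted p = 0.0012). Pnpla2, the lipase that starts triglyceride breakdown, rose by 0.89 ± 0.12 on the log2 scale. Cd36, a fatty acid uptake receptor, fell from 4.58 ± 0.195 to 0.405 ± 0.579 CPM and Apoe from 189 ± 64 to 35.6 ± 17 CPM, both also known from macrophages and endothelium. Lysosome and autophagy genes rose in 11 of 45 cases and fell in 2 (median 0.23). Without tumour 2, 3 and 4 there were 3, 1 and 23 rises and 2, 2 and 4 falls, and without the tumour block 5 rises. The count of rises thus depends on tumours 2 and 3 and on the pairing. Neu1, the lysosomal sialidase, was called in each of those fits and rose from 25.2 ± 0.475 to 43.1 ± 10.8 CPM (log2 fold change 0.75 ± 0.15, adjusted p = 0.00711). The falls in the whole fit were Ctsc and Ctss, cathepsins known from myeloid cells.

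**Figure D3:**
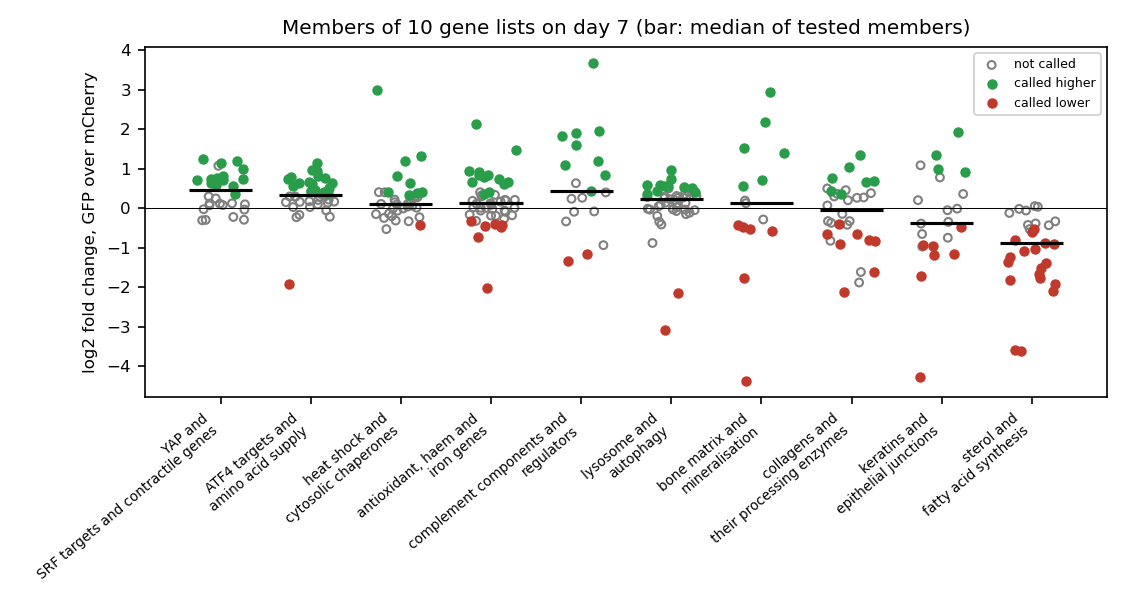
Log2 fold change of each tested member of 10 gene lists, GFP over mCherry cells on day 7, with called members filled (green higher, red lower), others open, and the median as a black bar. YAP and SRF targets have called members above 0 only, sterol and fatty acid genes below 0 only, and bone matrix genes on both sides.

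Bone matrix genes, which some mammary carcinomas express, divided evenly: 6 of 15 rose and 6 fell, with 6, 5 and 6 rises and 4, 3 and 6 falls without tumour 2, 3 and 4. Bglap2, osteocalcin, measured 101, 76.7 and 37.8 CPM in GFP cells. In mCherry cells it was 17, 10.1 and 3.15 CPM. The levels differed severalfold between tumours, but each GFP library exceeded all mCherry libraries (log2 fold change 2.94 ± 0.18, adjusted p = 1.06e-05). The neighbouring copy Bglap rose from 9.31 ± 3.88 to 43.1 ± 20.9 CPM (log2 fold change 2.18 ± 0.14, adjusted p = 1.47e-05), and reads of these near-identical genes may be split uncertainly. Ibsp, bone sialoprotein, was the largest of the 12 falls given above. It measured 2.9, 1.73 and 1.67 CPM in GFP cells. The mCherry libraries gave 54.6, 34.9 and 38.7 CPM, a 20.5-fold difference (log2 fold change −4.36 ± 0.17, adjusted p = 2.76e-06). Enpp1, which makes the mineralisation inhibitor pyrophosphate, fell from 82.5 ± 12 to 24.5 ± 3.89 CPM (log2 fold change −1.75 ± 0.14, adjusted p = 3.67e-05). The pyrophosphate transporter gene Ank had a change of −0.57 ± 0.11 on the log2 scale. Tnfrsf11b, osteoprotegerin, a decoy receptor for RANKL and TRAIL, rose from 38.5 ± 2.8 to 102 ± 5.69 CPM (log2 fold change 1.4 ± 0.11, adjusted p = 3.78e-05). Ogn, a small leucine-rich proteoglycan, rose by 1.53 ± 0.18 and Phex, a phosphate-regulating endopeptidase, by 0.72 ± 0.12 on the log2 scale. Spp1 went from 31522 ± 3573 to 22889.5 ± 3499 CPM (log2 fold change −0.47 ± 0.11), not called once tumour 2 (adjusted p = 0.172), tumour 3 (0.265) or the block (0.0671) was left out.

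Of 32 collagen and collagen-processing genes tested, 7 rose and 8 fell (5, 5 and 11 rises and 12, 6 and 8 falls without tumour 2, 3 and 4). Col18a1, a basement membrane collagen, measured 239, 219 and 203 CPM in GFP and 104, 101 and 117 CPM in mCherry cells (log2 fold change 1.03 ± 0.11, adjusted p = 2.42e-04). Col5a3 rose from 18 ± 4.76 to 45.6 ± 9.35 CPM and Col4a5 from 62.3 ± 16.7 to 103 ± 6.22 CPM, while Col5a1 fell from 216 ± 30.04 to 124 ± 15.7 CPM. Col1a1, the chain of the main fibrillar collagen, fell from 29.4 ± 16.4 to 7 ± 4.61 CPM (log2 fold change −2.12 ± 0.46, adjusted p = 0.0111). It is also a gene of fibroblasts, whose list had tumour medians of 0.61, −2.0 and −2.09. Both crosslinking enzymes named were lower: Lox, lysyl oxidase, with a log2 fold change of −1.61 ± 0.23 and Plod2, a lysyl hydroxylase, with −0.83 ± 0.10. Laminins and adhesive glycoproteins rose in 3 of 24 cases and fell in 7 (1, 3 and 8 rises without tumour 2, 3 and 4). Fbln2, a fibulin, fell from 452 ± 36 to 193 ± 15.1 CPM. Proteoglycan and hyaluronan genes fell in 5 of 22 cases with no rise, and had 0, 0 and 4 rises and 6, 2 and 5 falls without tumour 2, 3 and 4. Has2, a hyaluronan synthase, fell from 14.1 ± 2.06 to 4.3 ± 0.96 CPM.

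Matrix proteases and their inhibitors gave 5 rises and 8 falls of 29, and 4, 4 and 8 rises and 6, 5 and 12 falls without tumour 2, 3 and 4. Htra1, a secreted serine protease, measured 1528, 1347 and 1538 CPM in GFP and 806, 912 and 859.5 CPM in mCherry cells (log2 fold change 0.77 ± 0.11, adjusted p = 0.00124). Mmp11 (stromelysin-3) rose from 21.7 ± 1.69 to 42.1 ± 11 CPM and Timp3, a matrix-bound inhibitor, from 68.3 ± 4.11 to 125 ± 8.65 CPM. Mmp2, gelatinase A, fell from 212 ± 38 to 99.6 ± 33.5 CPM (log2 fold change −1.14 ± 0.14, adjusted p = 4.80e-04). Mmp3, stromelysin-1, fell from 452 ± 152 to 245 ± 39.5 CPM (log2 fold change −0.84 ± 0.12, adjusted p = 0.00117). Among 15 integrin chains, 2 rose and 3 fell. Itgb7, partner of the alpha-E and alpha-4 chains, rose from 59.8 ± 29.4 to 121 ± 29.1 CPM (log2 fold change 1.1 ± 0.13, adjusted p = 3.92e-04). Itgb3, a chain of the vitronectin receptor, fell from 39.3 ± 5.41 to 17.7 ± 4.02 CPM (log2 fold change −1.17 ± 0.19, adjusted p = 0.00272). Without tumour 2, 3 and 4 the integrins had 1, 1 and 4 rises and 1, 1 and 4 falls.

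Epithelial genes did not move as a block either, with 4 of 22 keratin and junction genes higher and 7 lower (median −0.36), and 3, 3 and 6 rises and 7, 5 and 7 falls without tumour 2, 3 and 4. Cdh1, E-cadherin, measured 25.1, 24.2 and 28.9 CPM in GFP cells. It stood at 6.92, 6.15 and 7.57 CPM in mCherry cells, with no overlap (log2 fold change 1.92 ± 0.16, adjusted p = 5.54e-05). Krt18 measured 94.3, 122 and 131 CPM in GFP cells. Their mCherry partners had 469, 270.4 and 432 CPM, above every GFP library (log2 fold change −1.72 ± 0.18, adjusted p = 2.41e-04). Its partner Krt8 fell from 833 ± 103 to 431 ± 78.9 CPM (log2 fold change −0.96 ± 0.14, adjusted p = 0.00142). Jup, plakoglobin, which links cadherins to filaments, had a log2 fold change of −0.93 ± 0.15 and Cldn12, a claudin, of 0.93 ± 0.11, both called. Vim, at 2132 CPM in GFP and 2150 CPM in mCherry cells, was not called. Of 12 mesenchymal transition genes 2 rose and 3 fell. Nt5e (CD73), the ectoenzyme that makes adenosine outside the cell, fell and measured 569, 476 and 447 CPM in GFP and 843, 821 and 791 CPM in mCherry cells (log2 fold change −0.72 ± 0.10, adjusted p = 0.00123). The counts of that list were 2, 0 and 4 rises and 4, 2 and 3 falls without tumour 2, 3 and 4.

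In axon guidance and neurotrophin signalling 8 of 36 genes rose and 4 fell, Ngfr among the rises (7, 6 and 12 rises without tumour 2, 3 and 4). The neuropilins, co-receptors for semaphorins and VEGF, parted. Nrp2 rose from 83.1 ± 13.5 to 140.0 ± 15.5 CPM (log2 fold change 0.76 ± 0.13, adjusted p = 0.00408). Nrp1 fell from 27 ± 6.78 to 11.1 ± 1.69 CPM (log2 fold change −1.25 ± 0.22, adjusted p = 0.00382). Nrp1 is also an endothelial and myeloid gene, and both host lists were lower in GFP libraries. Receptor tyrosine kinases and their ligands rose in 7 of 25 cases and fell in 2, with 5, 4 and 7 rises and 3, 1 and 3 falls in the same 3 fits. The receptors Axl, bound by GAS6, and Met, bound by hepatocyte growth factor, rose by 0.58 ± 0.10 and 0.66 ± 0.11 on the log2 scale. Of ligands, Hbegf rose from 129 ± 5.68 to 218 ± 26.9 CPM (log2 fold change 0.75 ± 0.11, adjusted p = 0.0012). Csf1, the macrophage growth factor, rose from 121 ± 21 to 199 ± 10.03 CPM (log2 fold change 0.73 ± 0.11, adjusted p = 0.00141), and Pdgfc, a PDGF ligand, fell from 28.9 ± 4.83 to 12.6 ± 2.07 CPM. In TGF-beta, activin and BMP signalling 4 of 36 rose and 7 fell (3, 2 and 7 rises and 8, 4 and 8 falls in those fits). Tgfbr3, betaglycan, rose from 13.9 ± 3.55 to 39 ± 21.5 CPM (log2 fold change 1.37 ± 0.25, adjusted p = 0.00458). Inhba, the activin A chain, fell from 141 ± 42.3 to 61.3 ± 6.19 CPM (log2 fold change −1.17 ± 0.12, adjusted p = 1.80e-04). Wnt genes (2 of 25 higher, 2 lower) had 16% called and Notch and Hedgehog genes (2 of 20 higher, 0 lower) 10%, against 18.2% of all genes. In those fits there were 0, 0 and 3 rises and 3, 1 and 2 falls for Wnt, and 1, 1 and 5 rises and 1, 0 and 0 falls for Notch and Hedgehog. ERK feedback genes gave 4 rises and 4 falls of 18, in those fits 3, 1 and 5 rises and 1, 2 and 4 falls. Angiogenic ligands rose in 2 of 19 cases, Angptl7 and Angptl6, and fell in 6 (2, 2 and 5 rises and 4, 1 and 5 falls in those fits). Angpt2, a TIE2 ligand known from endothelium, fell from 83.2 ± 12.2 to 36.4 ± 3.81 CPM. The IGF and imprinted list had 3 of 19 genes higher and 3 lower (4, 1 and 7 higher in those fits). H19, an imprinted long RNA, rose from 0.454 ± 0.393 to 6.74 ± 0.231 CPM (log2 fold change 3.96 ± 0.44, adjusted p = 3.07e-04). Igfbp3, an IGF-binding protein, fell from 8.14 ± 4.57 to 0.25 ± 0.135 CPM (log2 fold change −4.93 ± 0.40, adjusted p = 4.92e-05). Endothelial genes fell in the same libraries (list median −3.50), and the part of host cells in the Igfbp3 values was not tested.

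Complement genes rose in 9 of 19 cases and fell in 2 (median 0.45), with 7, 7 and 10 rises and 3, 1 and 3 falls without tumour 2, 3 and 4. C4b, which deposits on targets to form the convertase, measured 902, 824 and 391 CPM in GFP cells. In mCherry cells it was 177, 241 and 153 CPM, with no overlap (log2 fold change 1.83 ± 0.17, adjusted p = 8.83e-05). It shares near-identical sequence with C4a, which rose from 5.26 ± 1.41 to 16.6 ± 6.6 CPM. C1s1, the classical pathway protease, measured 223, 264 and 155 CPM in GFP and 54.4, 63 and 44.5 CPM in mCherry cells (log2 fold change 1.97 ± 0.11, adjusted p = 5.93e-06). Its partner C1ra rose from 57.8 ± 12.1 to 123 ± 15.2 CPM. C2 rose from 0.483 ± 0.0898 to 6.27 ± 2.45 CPM and Cfb, its counterpart in the alternative pathway, from 7.91 ± 3.17 to 18.1 ± 5.74 CPM, both from low levels. Cfp, properdin, a myeloid product, fell from 13.6 ± 4 to 5.24 ± 0.726 CPM. The genes of the C1q chains, which C1r and C1s join in the C1 complex, were counted on the macrophage list and not here. C1qa fell from 32.6 ± 8.75 to 4.1 ± 1.92 CPM, C1qb from 83.6 ± 30.8 to 11.5 ± 5.76 CPM and C1qc from 57.5 ± 20.5 to 7.44 ± 3.15 CPM. The part of host cells in these values was not tested.

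Of 22 costimulatory, adhesion and NK ligand genes tested, 2 rose, 10 fell and 10 were not called (median −0.40; 1, 2 and 3 rises and 8, 7 and 12 falls without tumour 2, 3 and 4). The NKG2D ligand gene Raet1d measured 6.01, 6.1 and 7.08 CPM in GFP cells. The mCherry libraries gave 20.4, 24.7 and 19.9 CPM, so GFP was the lower in all 3 tumours (log2 fold change −1.75 ± 0.18, adjusted p = 1.89e-04). Raet1e fell from 19.7 ± 2.99 to 6.86 ± 0.493 CPM (log2 fold change −1.51 ± 0.19, adjusted p = 5.10e-04). H60b, also a ligand of NKG2D, fell from 11.7 ± 1.96 to 5.4 ± 2.68 CPM (log2 fold change −1.17 ± 0.23, adjusted p = 0.00735). The Raet1 genes are close copies, so reads may be shared between them. Cd86, Cd48 and Sirpa, which fell by 2.18 to 2.72 on the log2 scale, are genes of myeloid cells. Cd24a, a ligand of inhibitory sialic acid receptors, rose from 16.6 ± 5.69 to 37.6 ± 11 CPM (log2 fold change 1.18 ± 0.17, adjusted p = 0.00147). Of 37 cytokine receptor and SOCS genes 3 rose and 8 fell, and without tumour 2, 3 and 4 there were 2, 2 and 7 rises and 7, 6 and 10 falls. Il1r1, the signalling receptor for interleukin-1, measured 14.2, 15.4 and 22.3 CPM in GFP and 47.4, 55 and 65.2 CPM in mCherry cells (log2 fold change −1.71 ± 0.13, adjusted p = 2.77e-05). The log2 fold change was −0.54 ± 0.11 for Ifngr2, a chain of the interferon-gamma receptor, and 1.03 ± 0.21 for Il15ra, which presents interleukin-15 to lymphocytes, both called. Of 43 apoptosis, necroptosis and granzyme inhibitor genes 7 rose and 5 fell, with 3, 3 and 9 rises and 3, 4 and 10 falls in the same 3 fits. Tnfsf10 (TRAIL), a death ligand, rose from 3.31 ± 0.316 to 10.004 ± 1.77 CPM. Mlkl, the executor of necroptosis, rose from 36.9 ± 3.2 to 76.3 ± 7.84 CPM (log2 fold change 1.05 ± 0.11, adjusted p = 2.54e-04). Serpinb9, the granzyme B inhibitor, showed a small difference (log2 fold change 0.40 ± 0.12) that was not called without tumour 2 (adjusted p = 0.0647), tumour 3 (0.182) or the block (0.0879), nor in DESeq2 (0.0682).

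Immediate early and AP-1 genes rose in 7 of 28 cases and fell in 5, with 5, 2 and 11 rises and 3, 3 and 6 falls without tumour 2, 3 and 4. Fosl1 (FRA-1), an AP-1 subunit, measured 293, 357 and 385 CPM in GFP and 162, 216 and 155 CPM in mCherry cells (log2 fold change 0.96 ± 0.13, adjusted p = 7.46e-04). The GADD45 relatives, small proteins of the stress and growth arrest response, moved apart. Gadd45b rose from 9.75 ± 2.07 to 26.4 ± 3.92 CPM (log2 fold change 1.44 ± 0.17, adjusted p = 4.31e-04). Gadd45a fell from 256 ± 36.6 to 117 ± 24.6 CPM (log2 fold change −1.15 ± 0.13, adjusted p = 3.83e-04). Myc rose from 86.9 ± 7.71 to 144 ± 3.68 CPM (log2 fold change 0.73 ± 0.10, adjusted p = 8.53e-04). Of its list, 5 of 33 ribosome biogenesis genes rose, with 1 fall, in all 18.2%, the share of all genes (4, 1 and 5 rises and 0, 0 and 6 falls in those 3 fits). This stood beside 0 rises and 33 falls among 40 cell division genes (28, 13 and 38 falls in those fits). Sgk1, a kinase gene induced by glucocorticoids and serum, rose from 283 ± 12.5 to 573 ± 25.1 CPM (log2 fold change 1.02 ± 0.10, adjusted p = 1.13e-04). Its list of nuclear receptor genes had 6 rises and 3 falls of 25 (4, 2 and 12 rises and 4, 2 and 3 falls in those fits). Of 19 long non-coding RNAs tested 9 rose and none fell (median 0.44), but 10, 3 and 12 without tumour 2, 3 and 4. Neat1, the scaffold of nuclear paraspeckles, rose from 181 ± 34.1 to 344 ± 43.7 CPM (log2 fold change 0.93 ± 0.15, adjusted p = 0.00296). Snhg8 and Pvt1 rose by 0.67 ± 0.12 and 0.72 ± 0.11 on the log2 scale. Genes of the circadian clock rose in 5 of 15 cases, and in 4, 0 and 8 without tumour 2, 3 and 4. Homeobox genes had 3 rises and 2 falls of 24, or 20.8% called against 18.2% of all genes (1, 1 and 4 rises and 1, 1 and 3 falls in those fits). Irx2 rose from 33.8 ± 2.86 to 62.7 ± 11 CPM and Dlx1 fell from 19.6 ± 1.67 to 6.89 ± 0.905 CPM.

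In lists of basic machinery the share called was 8.33% for mitochondrial translation and import, 16.7% for the proteasome and 17.1% for splicing factors. It was 23.5% for nucleotide and one-carbon synthesis, against 18.2% of all genes. The falls of these lists multiplied in the fit without tumour 4. Genes of mitochondrial translation and import had 0 rises and 3 falls of 36 (median −0.042), with 0, 0 and 8 falls without tumour 2, 3 and 4. The constitutive proteasome had 1 and 5 of 36 (median −0.16), with 1, 1 and 3 rises and 1, 1 and 20 falls in those fits. Splicing factors had 0 and 6 of 35 (median −0.20), with 0, 0 and 2 rises and 3, 0 and 17 falls. Nucleotide and one-carbon synthesis had 3 and 5 of 34 (median −0.095), with 0, 0 and 4 rises and 3, 2 and 15 falls. In the last of these the clearer falls were Tk1, thymidine kinase, from 103 ± 11.3 to 56 ± 17.2 CPM, and Dut, which removes dUTP, from 231 ± 18.7 to 125 ± 7.25 CPM, both genes of S phase. Psmb7, a constitutive catalytic subunit that the interferon-induced subunit Psmb10 replaces, fell from 132 ± 8.36 to 74.8 ± 4.92 CPM (log2 fold change −0.82 ± 0.10, adjusted p = 5.47e-04). Psme1, a proteasome activator, rose by 0.58 ± 0.10 on the log2 scale. Transport of glucose, lactate and acid gave 5 rises and 7 falls of 22 (4, 3 and 6 rises and 4, 2 and 7 falls in those fits). Car9, a carbonic anhydrase, rose from 72.7 ± 9.87 to 119.9 ± 37.5 CPM and Aqp1, a water channel, from 56.8 ± 19.8 to 98.7 ± 3.65 CPM.

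The changes were unevenly spread over the chromosomes (14535 tested genes with a position). On chromosome 8, 148 of 782 genes were higher (18.9%) and 33 lower (4.22%), against 8.89% and 9.33% of all genes, and 70.7% of its genes had a log2 fold change above 0. Its median was 0.21, with 0.19, 0.21 and 0.21 in the 3 tumours and 0.16 on day 15, and 12 of 13 windows of 10 Mb had a median above 0. Chromosome 3 had 129 higher and 46 lower genes (median 0.12) and chromosome 2 had 65 higher and 171 lower (median −0.13). Leaving out chromosome 8, the counts were 1148 higher and 1327 lower. Among the counts of called members per list, those that moved by over 1.5 times were the falls of matrix proteases (8 to 5) and of Wnt genes (2 to 1) and the rises of endoplasmic reticulum chaperones (2 to 1). Some list medians near 0 moved further: that of antioxidant, haem and iron genes went from 0.12 to 0.024 and that of endoplasmic reticulum chaperones from 0.068 to 0.035. Medians of collagens (−0.035 to 0.14), matrix proteases (−0.07 to 0.043) and angiogenic ligands (−0.058 to 0.05) changed sign. DNA copy number of the GFP and mCherry lines was not analysed here, so the source of this pattern was not tested.

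**Figure D4:**
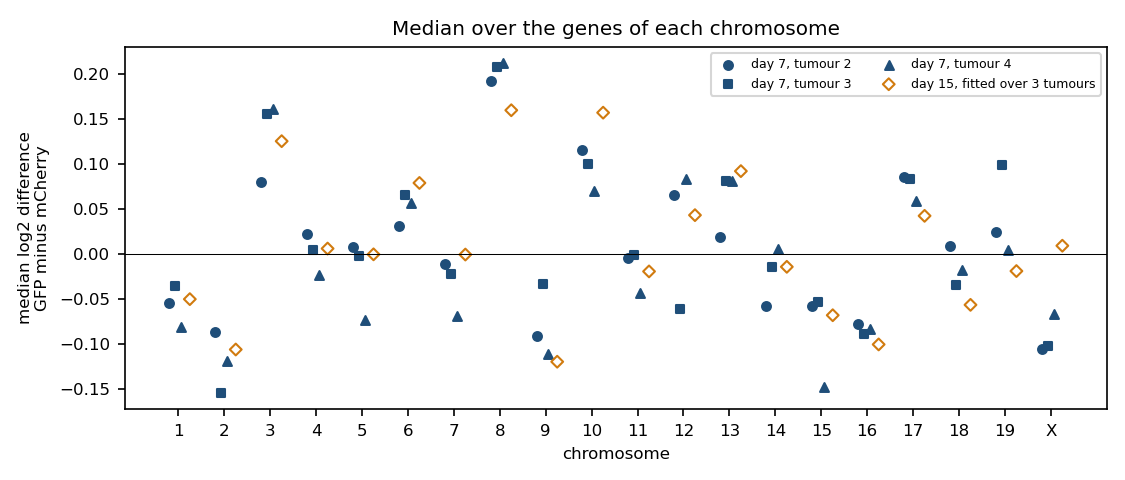
Median log2 difference, GFP minus mCherry, over the tested genes of each chromosome, for the 3 day 7 tumours (blue) and for the fit of the 3 day 15 tumours (orange diamonds). Chromosome 8 has the highest day 7 medians, 0.19 to 0.21, and 0.16 on day 15.

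The same comparison in 3 tumours whose mice received T cells on day 15 gave a second set of samples, sequenced in another run, so day and run cannot be told apart. Of the genes higher on day 7, 1219 of 1295 (94.1%) had the same direction on day 15, and of those lower 1268 of 1355 (93.6%), against 72.7% of all genes. The log2 fold change on day 15 was 2.52 ± 0.20 for Ngfr, 2.52 ± 0.14 for Angptl7, 1.88 ± 0.19 for Bglap2, −4.16 ± 0.22 for Ibsp, −2.5 ± 0.21 for Krt76 and −2.68 ± 0.40 for Stc1. It was 1.26 ± 0.11 for Ctgf, 0.31 ± 0.16 for Asns, 2.01 ± 0.21 for Hmox1, −1.49 ± 0.20 for Cyp51 and 1.36 ± 0.12 for Cdh1. List medians on day 15 were 0.23 for YAP and SRF targets, 0.13 for ATF4 targets and −0.84 for sterol and fatty acid synthesis. A test of the difference between days called 35 of 16588 genes (0.211%), and none of the 11 genes of this paragraph was among them; that does not show equal effects.

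**Figure D5:**
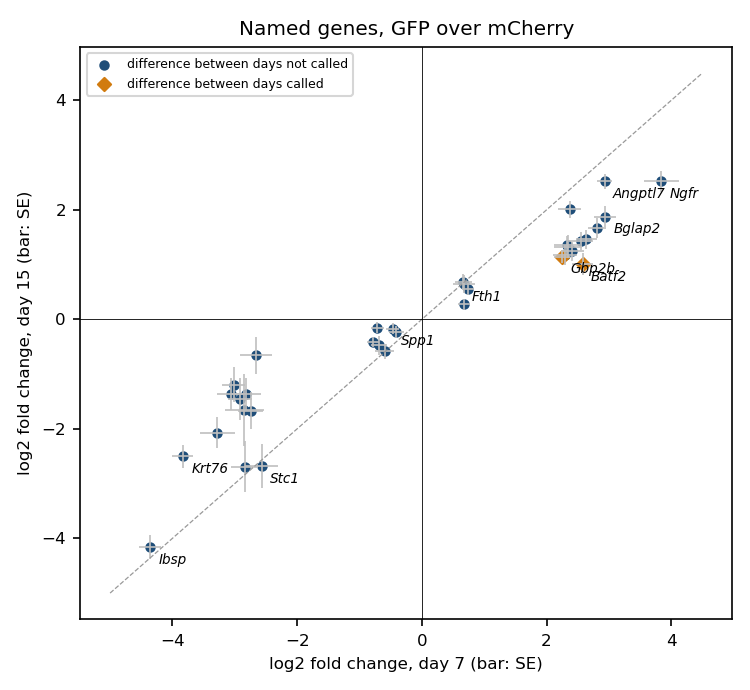
Log2 fold change of GFP over mCherry cells on day 7 (horizontal) and day 15 (vertical) for the genes named for the largest changes. Bars are SE, for day 7 from the fit of its 6 libraries and for day 15 from the joint fit of 12 libraries. The dashed line marks equality. All points keep their direction, and 2 genes, Batf2 and Gbp2b, have a called difference between days.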

How the data were processed

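RNA of sorted tumour cells was sequenced, and the read counts per gene were deposited as whole numbers, made by the sequencing provider per the labels' protocols and, per the submitters' processing notes, against mm10. The authors' deposited table of log2 fold changes, with its adjusted p-values from DESeq2, was used as a cross-check only, per the file headers. Columns were matched to groups by name. The column numbers 2 to 4 do not match the title numbers 1 to 3, so columns stand for groups, and a shared number was taken as a shared tumour. Same-numbered libraries deviated together (residual correlations 0.110, 0.147 and 0.162; other pairs −0.130 to 0.00919). The rows without a gene name held under 0.011% of counts and were left out.

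Counts were fitted in R 4.3.3 with edgeR 4.0.16 (limma 3.58.1): TMM scaling, filterByExpr with a minimum count of 10 and total of 15, tumour as a block, quasi-likelihood F-test with 2 residual degrees of freedom, Benjamini-Hochberg adjustment and a threshold of 0.05. CPM of single genes are TMM-scaled, and log2 differences within a tumour used a prior count of 2. Summed levels of a list used library totals without TMM. The day 15 log2 fold changes and their difference from day 7 were fitted over 12 libraries with tumour nested in day. Nothing in the labels gives separate cultures of the injected mix, so p-values rest on how the difference between GFP and mCherry cells varied between tumours. The fit was tested on simulated counts. Alternatives were DESeq2 1.42.0, its size factors, no filter, a minimum count of 50, no block and leaving out each tumour. Added after the data were seen were leaving out the 5 genes that together held 7.27% of counts in the mCherry library of tumour 4 and leaving out chromosome 8.

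Members and gene lists were chosen with earlier results of these data known. Named were genes called with the same sign in all 3 tumours, outside the interferon, division and host lists and with an average log2 CPM from 3 upward (12 largest rises and falls by fold, 6 by CPM), and of each list the 3 called members of smallest p and the most abundant one. Other members named were chosen after their values were seen, mostly among those called under every alternative. Promoters are from RefSeq, for 9812 tested genes matched by Ensembl identifier or, failing that, by symbol. The motifs were set by hand for each list. Of 12500 promoter entries checked, 8621 had bases after the start that lay in a transcript start on the same strand. Some genes are not reported here.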

Additional observations from a re-analysis of the deposited data

Results flagged for a closer look

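For 16 of the named and listed genes the GFP effect differed between day 15 and day 7 by the edgeR quasi-likelihood test of the difference itself, at an adjusted p under 0.05 over 16588 genes. The values are day 15 minus day 7 on the log2 scale, over 3 tumours on each day. Day and sequencing run cannot be told apart, and the number of such calls over all genes, 35, was 4, 36 and 127 without day 7 tumour 2, 3 and 4 and 2 without the tumour block.

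The interferon-induced genes were less raised on day 15: the guanylate-binding protein genes Gbp2b (−1.11 ± 0.16, adjusted p = 0.0256), Gbp3 (−0.98 ± 0.16, 0.0309), Gbp6 (−1.13 ± 0.18, 0.0301) and Gbp7 (−1.13 ± 0.18, 0.0279), and the immunity-related GTPase genes Igtp (−1.17 ± 0.20, 0.0372) and Irgm2 (−1.17 ± 0.19, 0.0309). The same held for the transcription factor gene Batf2 (−1.57 ± 0.28, 0.0459) and for 3 genes of MHC class I presentation, the activator Nlrc5 (−0.86 ± 0.16, 0.0495), the peptide transporter chain Tap1 (−0.93 ± 0.15, 0.0302) and tapasin, Tapbp (−0.89 ± 0.15, 0.031).

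Differences in the other direction were those of Apoe (2.15 ± 0.17, 2.82e-04), Ctss (2.26 ± 0.20, 3.85e-04) and Lyz2 (1.88 ± 0.32, 0.0359), known from macrophages. Plvap (3.59 ± 0.58, 0.0301), an endothelial gene, Igf2 (1.29 ± 0.18, 0.0167), a growth factor gene, and Dcn (0.99 ± 0.13, 0.0167) went the same way. Dcn is on the fibroblast list and measured 448 to 606 CPM in every day 7 library. On day 15 its log2 fold change was 1.25. Others of that list had 0.28 (Pdgfra) and −1.53 to −1.90 (Col3a1, Lum, Mfap5 and Pi16). The part of host cells in the Dcn values was not tested.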

How the results depend on the processing

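No gene called in the whole fit had the other sign in the settings recomputed. List medians near 0 did change sign, for example that of laminins (−0.095 to 0.018) and of endoplasmic reticulum chaperones (0.068 to −0.036) without tumour 4 and of ERK feedback genes (0.013 to −0.14) without tumour 3. Leaving out 1 tumour, the genes called numbered 1156 to 4558, against 2656 in the whole fit, those higher in GFP cells 522 to 2240 and those lower 634 to 2318. The lowest values were without tumour 3 and the highest without tumour 4, whose mCherry library stood apart, and the cause was not tested. Of the 2656 calls, 1571, 1100 and 2542 were also called without tumour 2, 3 and 4, and 835 under every setting. Other settings kept the count within 1.5 times: 2643 with DESeq2's size factors, 2258 with DESeq2, 3177 without the filter, 2377 at a minimum count of 50, 2627 without the 5 genes of the mCherry library of tumour 4, and 2475 without chromosome 8. Without the tumour block that pairs the libraries 2159 genes were called, 2131 of them also called with it. Of 564 named and listed results for single genes, 79 lost their call without the block, 135, 210 and 12 without tumour 2, 3 and 4, and 34 with DESeq2. The difference between days called 35 genes, 31 with DESeq2's size factors, 4 to 127 leaving out 1 day 7 tumour, and 2 without the tumour block, and the cause was not tested. Low counts limit genes under about 1 CPM.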

Other observations

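By gene type, 1207 of 11856 protein-coding genes tested were higher and 1280 lower. Of 1037 processed pseudogenes 11 were higher and 15 lower, and of 314 long intergenic RNA genes 24 and 22. The types were not matched for level, and the source of the unlike counts was not tested. Schwann cell genes were the host list with rises, 2 of 3 tested: Cdh19 (log2 fold change 2.23 ± 0.46, adjusted p = 0.00875) and Mbp (log2 fold change 0.72 ± 0.16, adjusted p = 0.0117) were higher. The call of Mbp ended without tumour 3 (adjusted p = 0.132). Beside the rise of Ngfr, which Schwann cells also express, Cdh19 measured 1.72, 2.49 and 1.67 CPM in GFP and 0.448, 0.641 and 0.158 CPM in mCherry cells. The part of such cells in the Ngfr values was not tested.

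In the authors' deposited table for day 7, 2260 of 14599 genes had an adjusted p under 0.05, and 2201 of them were also called here, all with the same sign.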
